A study of Homo sapiens with 12 samples.

Results

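The BCL2 family sets whether a cell releases cytochrome c from its mitochondria and dies by apoptosis. Survival proteins such as BCL-XL and MCL1 hold the effectors BAX and BAK1 in check. BH3-only proteins, named for the single BCL2 homology domain they carry, bind the survival proteins or activate the effectors, and NOXA binds MCL1 with preference. The 10 genes described here were chosen by symbol: 6 BH3-only genes (PMAIP1, which encodes NOXA; BBC3, which encodes PUMA; BCL2L11, which encodes BIM; BID; BAD; BIK), 2 effectors (BAX, BAK1) and 2 survival genes (BCL2L1, which encodes BCL-XL; MCL1). All 10 are listed in the table of a first experiment, which holds 23284 symbols, and in that of a knockout experiment, which holds 12421. All 10 passed the filter on low values in each table. The choice of genes was made with earlier results of these data known.

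The samples are 12 libraries of RNA that sedimented with polysomes in HEK293 cells, which derive from human embryonic kidney, 2 libraries in each of 6 groups. Transfection lasted 24 h and used 5 ug of plasmid, either a vector without insert or one for STING, an adaptor protein in the sensing of cytosolic DNA. The first experiment has a vector and a STING group in HEK293 cells with no genotype given. The knockout experiment has 4 groups, each plasmid having been given to cells labelled wild type and to cells labelled as a knockout of PERK, the endoplasmic reticulum kinase that phosphorylates eIF2alpha and thereby lowers general translation while mRNAs such as ATF4 are translated. Whether the knockout line is a clone or a pool is not given in the sources used here. All cells were treated with cycloheximide for 30 min before lysis. The study asks whether STING acts through PERK on which mRNAs are translated. Values are FPKM, fragment numbers corrected for transcript length and library size, so levels of different genes can be compared within a library. Total RNA was not analysed here, so the amount of an mRNA and its loading with ribosomes cannot be told apart. Nor can a smaller share of cells that express a gene be told apart from less RNA per cell.

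The STING transcript, listed as TMEM173, stood at 13.8 to 14.9 FPKM with vector and reached 65157 and 69253 with STING where no genotype is labelled. Of the other 8 libraries, those with STING had it at 41812 and 40660 in wild-type cells but at 10512 and 7338 in knockout cells, and the STING groups of the 2 genotypes thus also differ in STING level. EIF2AK3, the gene of PERK, stood at 1.15 FPKM or less in each of the 12 libraries and cannot check the knockout label. Of 9 HEK293 markers, NEFM, PAX2 and LHX1 were at or near the lowest value of each table, with NEFM reaching 3.24 FPKM in 1 knockout library. The summed HEK293 markers were 115.7 to 130.2 FPKM with vector and 156.8 to 158.5 with STING in the first experiment. They were 170.6 to 238.5 in the wild-type libraries and 297.7 to 499.9 in the knockout libraries. Most of the sum in the first experiment was KRT18 (means 59.2 with vector and 65.8 with STING) and VIM (46.2 and 75.0). NEFL, INA and EYA1 stood at 5.07 FPKM or less there. Of the other cell types' markers, the summed level was at most 15.3 FPKM for 10 haematopoietic genes, 1.75 for 9 fibroblast genes and 9.79 for 7 hepatocyte genes. The relative depth of the libraries, read from steps among low values, was 0.886 to 1 in the first and 0.822 to 1.29 in the knockout experiment. The tables hold no counts, and the absolute depth is unknown.

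PMAIP1 and BBC3 were the members that passed the test upward in the first experiment, and their promoters are shown here for that reason. RefSeq (GRCh38.p14) lists promoter windows for 8 of the 10 members, with none for BIK and MCL1. Each run is the 250 bases before the start of transcription, read 5′ to 3′ on the gene's own strand. Capitals mark matches, on either strand, to the core of the cAMP response element (TGACGT, read as ACGTCA on the opposite strand), the AP-1 site (TGANTCA) or the E-box (CACGTG).
PMAIP1, chr18:59899746-59899995, plus strand: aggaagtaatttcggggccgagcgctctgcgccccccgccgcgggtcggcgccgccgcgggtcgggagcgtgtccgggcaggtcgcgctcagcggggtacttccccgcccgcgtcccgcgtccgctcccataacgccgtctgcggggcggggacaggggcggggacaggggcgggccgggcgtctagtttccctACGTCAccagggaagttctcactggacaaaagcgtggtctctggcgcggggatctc
BBC3, chr19:47232668-47232917, minus strand: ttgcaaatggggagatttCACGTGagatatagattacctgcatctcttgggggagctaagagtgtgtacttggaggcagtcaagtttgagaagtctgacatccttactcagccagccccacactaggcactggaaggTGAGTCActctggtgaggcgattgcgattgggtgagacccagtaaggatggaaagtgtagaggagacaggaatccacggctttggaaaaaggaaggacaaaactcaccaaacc
The PMAIP1 window had a G and C content of 72.8% and the BBC3 window of 49.2%. The core of the cAMP response element is bound by factors of the CREB and ATF families. It was found 51 to 56 bases before the PMAIP1 start and in the BAD windows, thus in 3 of the 14 member windows. Some members have several windows, and 2 of the 8 members held it. Of 35116 promoter windows of the same length, 7.10% held it. The full cAMP response element (TGACGTCA), held by 1.65% of windows, and the composite element of C/EBP and ATF factors (TGATGNAA), held by 3.14%, matched in no member's window. The AP-1 site in the BBC3 window, 107 to 113 bases before the start, was in no other member's window and in 6.57% of all. E-boxes were found in 4 of the 14 member windows, those of BAX, BBC3 and BID, thus in 3 of the 8 members, against 6.34% of all windows. These matches describe letters and were not tested as binding sites. The windows say nothing of which start these cells use.

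In the first experiment, which asks what STING alone changes, PMAIP1 and BBC3 were higher with STING and BIK was lower, whereas none of the other 7 members passed the test. Of the 10 members, 2 passed upward, against 2.51% of the 9464 genes tested, and 1 passed downward, against 9.29% (limma, two-sided, adjusted over all genes, at 0.05). In 3 members the STING libraries both lay above the vector libraries, against 24.2% of all genes, and in 5 they both lay below, against 32.8%. An unadjusted p under 0.05 was reached by 2 members upward and 5 downward, against 8.82% and 18.9% of all genes. The median log2 change was -0.39 over the members and -0.05 over all genes. Because the members were chosen with earlier results known, these shares describe them and do not test an enrichment.

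PMAIP1 was at 29.4 and 35.1 FPKM with vector, against 142.5 and 126.2 with STING. The groups were far apart, and each STING library held between 3.59 and 4.85 times the level of a vector library. The log2 change was 2.03 (SE 0.15, limma adjusted p = 0.000654). BBC3, whose protein PUMA binds all the main survival proteins, was at 4.00 and 6.06 FPKM with vector, against 20.6 and 14.9 with STING, again without overlap. Its log2 change was 1.64 (SE 0.25, limma adjusted p = 0.00695). Neither gene passed without STING library 1 (adjusted p = 0.0811 for PMAIP1 and 0.178 for BBC3), without STING library 2 (0.0608 and 0.128) or without the intensity trend and robust estimation (0.0727 and 0.0915), while the log2 changes in those fits were at least 1.94 and 1.43.

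BIK, a BH3-only protein located mainly at the endoplasmic reticulum, was at 8.40 and 7.16 FPKM with vector, against 3.94 and 2.59 with STING. The STING libraries were the lower ones, with a log2 change of -1.06 (SE 0.25, limma adjusted p = 0.0319). This call did not hold without the filter on low values (adjusted p = 0.0803), with median-of-ratios scaling (0.0529), without the intensity trend and robust estimation (0.104) or in any of the 4 fits that left out 1 library (0.0768 to 0.233). BCL2L11, whose protein BIM activates the effectors, was at 7.13 and 2.26 FPKM with vector, against 4.79 and 5.11 with STING. Its vector libraries lay on either side of the STING libraries (log2 change 0.21, adjusted p = 0.803), and the change was -0.45 without vector library 2.

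BID, which links death receptors to mitochondria once cleaved, was at 78.4 and 80.5 FPKM with vector, against 59.6 and 56.3 with STING. The STING libraries were lower without overlap, but the log2 change of -0.45 missed the threshold (limma adjusted p = 0.0635). BAD, a sensitizer whose binding is blocked by phosphorylation, was the most abundant member, at 315 and 372 FPKM with vector, against 267 and 258 with STING. Its log2 change was -0.38 (adjusted p = 0.0781), and 0.05 after quantile normalization. The 2 effectors stood in the same order: BAX at 102.5 and 99.1 FPKM with vector, against 58.3 and 78.4 with STING, and BAK1 at 41.0 and 43.6 with vector and at 27.5 and 31.7 with STING. Neither effector overlapped between groups, and neither passed (log2 changes -0.57 and -0.51, limma adjusted p = 0.0618 and 0.0806). With a minimum mean of 5 FPKM, BAX, BID and BAD passed as lower (adjusted p = 0.0394, 0.0415 and 0.0492), when 22.9% of the genes tested passed.

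Of the survival genes, BCL2L1 was at 6.73 and 10.0 FPKM with vector, against 5.31 and 6.86 with STING, so that 1 STING library lay within the vector range. MCL1, a short-lived protein, was the least abundant member with vector, at 2.36 and 2.86 FPKM, and stood at 3.88 and 3.87 with STING. Its groups did not overlap, but neither survival gene passed (log2 changes -0.39 and 0.44, limma adjusted p = 0.367 and 0.273). Beside these changes, VIM, the only HEK293 marker of 6 tested that passed, was higher with STING, at 47.5 and 44.9 FPKM against 75.0 and 75.1 (log2 change 0.69, adjusted p = 0.0157; 0.182 and 0.195 without a STING library), and the part of this shift in the members' values was not tested.

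**Figure D1:**
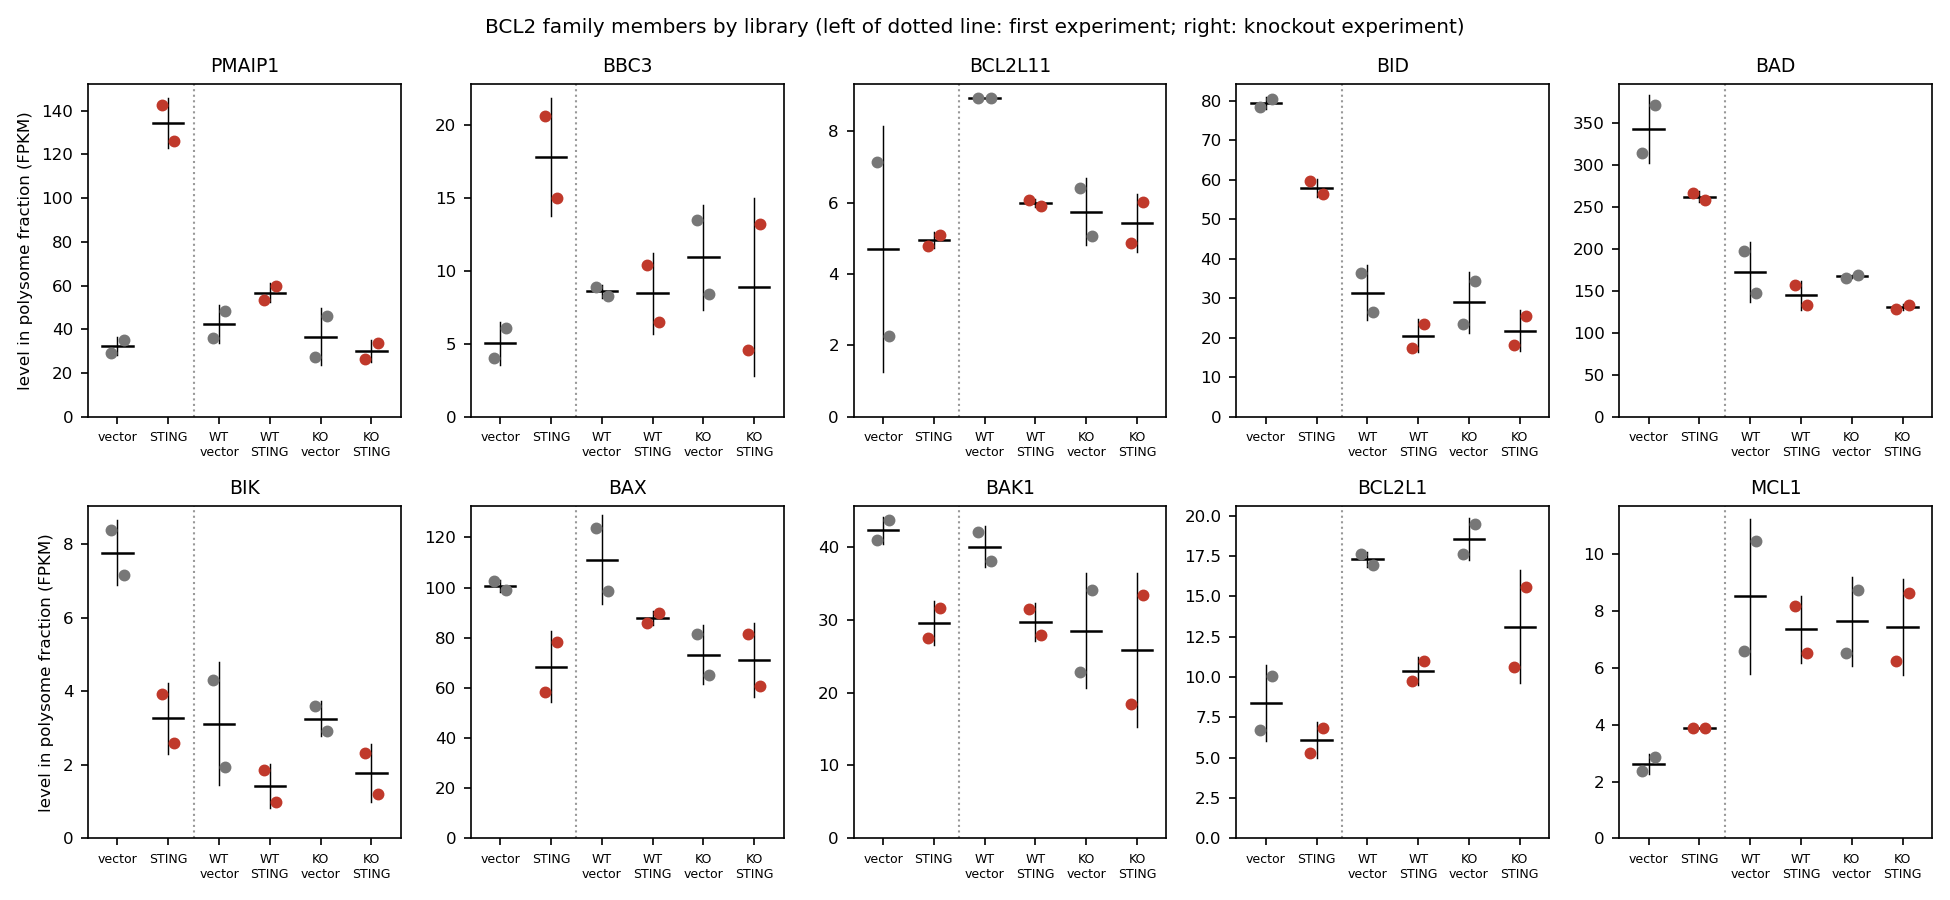
Level in the polysome fraction (FPKM, linear axis from 0) of the 10 members in each library. Points are libraries (grey, vector; red, STING), horizontal lines are means and vertical lines the SD of the 2 libraries of a group; the dotted line separates the experiments, whose levels are not on a shared scale. PMAIP1 with STING in the first experiment stands at 142.5 and 126.2 FPKM, while the STING libraries of the knockout experiment stand at 26.4 to 59.9.

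In the knockout experiment, the same question was asked in wild-type cells. The changes of PMAIP1 and BBC3 were smaller than in the first experiment, and that of BCL2L1 was larger. The median log2 change over the members was -0.37, against -0.39 in the first experiment, and the difference between experiments was not tested. None of the 10 members passed (limma), 0 of 10 had an unadjusted p under 0.05 upward and 2 of 10 downward. Of all 12254 genes, 1 passed, which is 0.00816%, and an unadjusted p under 0.05 was reached by 0.441% upward and 12.4% downward. PMAIP1 was the only member whose STING libraries both lay above the vector libraries, against 3.31% of all genes. In 6 members both STING libraries lay below, against 52.3%. The median log2 change of all genes was -0.27 as deposited and 0.05 with median-of-ratios scaling, and this rescaling, like quantile normalization, changed the sign of 4 of the 10 members (BBC3, BAD, BAX and MCL1) from lower to higher.

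PMAIP1 was at 36.2 and 48.5 FPKM with vector, against 53.6 and 59.9 with STING in wild-type cells. The ratio of the means was 1.34, and single pairs of libraries gave 1.11 to 1.65. The log2 change was 0.43 (SE 0.28, 95% interval -0.23 to 1.08, limma adjusted p = 0.467), and 0.81 with median-of-ratios scaling. BBC3 was at 8.88 and 8.29 FPKM with vector, against 10.4 and 6.49 with STING, so that the STING libraries lay on either side of the vector libraries. Its log2 change of -0.05 (95% interval -1.10 to 0.99) became 0.29 with median-of-ratios scaling.

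BCL2L1 was at 17.6 and 17.0 FPKM with vector, against 9.73 and 11.0 with STING in wild-type cells, the member with the lowest unadjusted p in that comparison (0.0164). Its log2 change was -0.69 (SE 0.23, limma adjusted p = 0.384). BCL2L11 was at 8.93 in each vector library, against 6.08 and 5.91 with STING (log2 change -0.51, unadjusted p = 0.0426, adjusted p = 0.384). With median-of-ratios scaling these changes were -0.33 and -0.16. BIK was at 4.30 and 1.95 FPKM with vector, against 1.85 and 1 with STING, where 1 is the lowest value that the knockout table holds, so its log2 change of -0.73 may be understated. The remaining members were BID at 36.3 and 26.5 against 17.5 and 23.5, BAX at 124 and 98.7 against 86.0 and 89.7, and BAK1 at 42.0 and 38.0 against 31.5 and 27.9, all lower with STING without overlap as deposited, although the BAX log2 change of -0.33 became 0.06 under both rescalings. BAD, at 198 and 147 against 157 and 133, and MCL1, at 6.59 and 10.4 against 8.19 and 6.51, overlapped between groups.

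In PERK knockout cells, again no member passed (limma), and no member had an unadjusted p under 0.05 in either direction. Of all genes, 1 passed (0.00816%), and an unadjusted p under 0.05 was reached by 1.06% upward and 6.64% downward. No member's STING libraries both lay above the vector libraries, against 5.66% of all genes, and in 3 members, BAD, BIK and BCL2L1, both lay below, against 21.9%. PMAIP1 was at 27.4 and 46.0 FPKM with vector, against 26.4 and 33.8 with STING. The groups overlapped, with a log2 change of -0.24 (SE 0.28, 95% interval -0.90 to 0.41, limma adjusted p = 0.885) and of 0.12 without vector library 2. BBC3 was at 13.5 and 8.39 FPKM with vector, against 4.56 and 13.2 with STING, the widest spread among replicates of this gene. Its log2 change was -0.39 (95% interval -1.44 to 0.65).

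BCL2L1 in knockout cells was at 17.6 and 19.5 FPKM with vector, against 10.6 and 15.6 with STING (log2 change -0.49, limma adjusted p = 0.669). BIK was at 3.61 and 2.92 with vector and at 2.32 and 1.21 with STING (log2 change -0.65, adjusted p = 0.729), and BAD at 166 and 169 against 129 and 134. The other members overlapped: BCL2L11 at 6.41 and 5.08 against 4.86 and 6.01, BID at 23.6 and 34.4 against 18.2 and 25.4, BAX at 81.5 and 65.1 against 81.6 and 60.6, BAK1 at 22.9 and 34.1 against 18.4 and 33.3, and MCL1 at 6.54 and 8.75 against 6.23 and 8.63. Of these, BCL2L11, BAX, BAK1 and MCL1 had log2 changes from -0.17 to -0.04 that turned positive, at 0.02 to 0.20, under both rescalings.

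**Figure D2:**
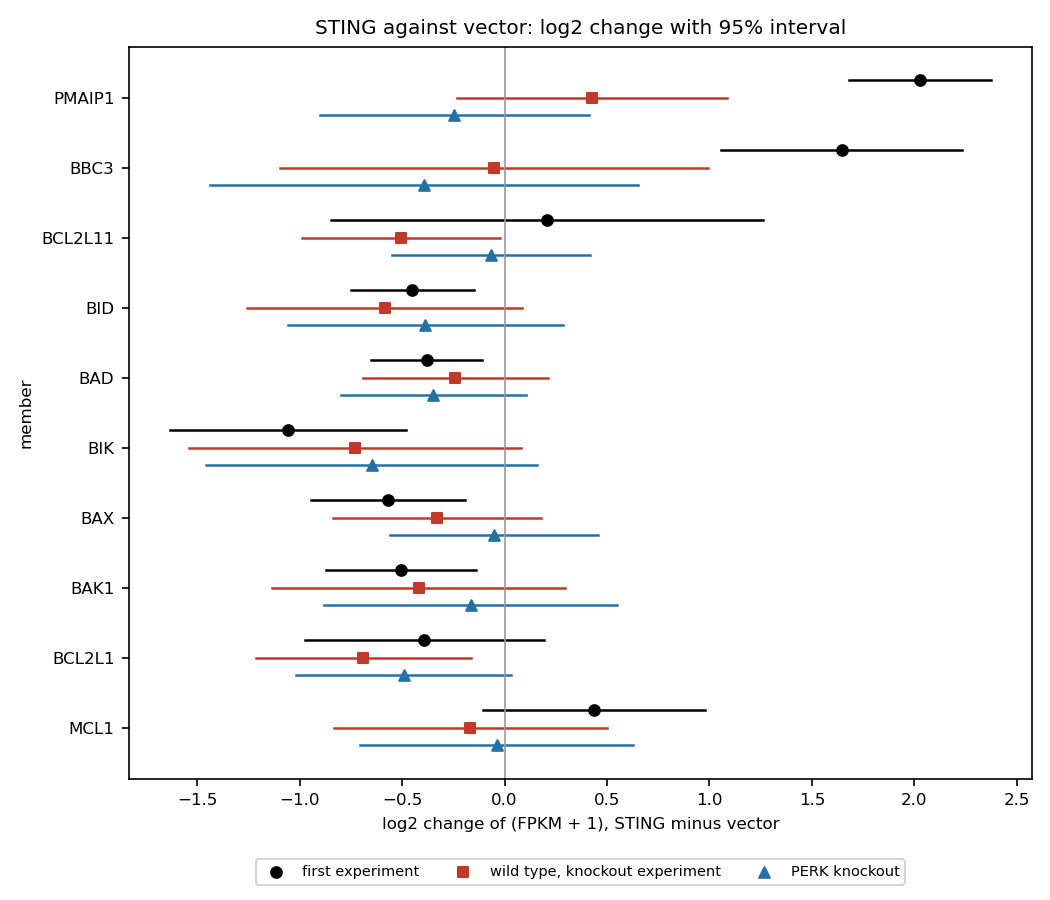
Log2 change of (FPKM + 1), STING minus vector, for each member (rows) in the first experiment (black circles), in wild-type cells (red squares) and in PERK knockout cells (blue triangles) of the knockout experiment; lines are 95% intervals from limma. PMAIP1 and BBC3 stand at 2.03 and 1.64 in the first experiment, while the PMAIP1 interval crosses 0 in both genotypes of the knockout experiment.

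Whether the STING effect differed between PERK knockout and wild-type cells was tested by the interaction, for which no member and none of the 12254 genes passed (limma; 3.87% of all genes and 0 of 10 members had an unadjusted p under 0.05). For PMAIP1 the difference of log2 changes, knockout minus wild type, was -0.67 (SE 0.40, 95% interval -1.60 to 0.26, adjusted p = 0.966), so a loss of the response by 1.60 and a gain of 0.26 both lie within the interval. For BCL2L11 it was 0.44 (95% interval -0.24 to 1.12) and for BBC3 -0.34 (-1.82 to 1.14). These intervals leave out the pairing of libraries by replicate number. With that number as a block, again no member and no gene passed. No member lay higher with STING in wild-type and lower in knockout cells without overlap, or the reverse, against 0.457% and 2.14% of all genes. The lower STING level in the knockout cells moves with this comparison, and its part in the difference was not tested.

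With STING in both genotypes, PMAIP1 was lower in knockout cells, at 26.4 and 33.8 FPKM, than in wild-type cells, at 53.6 and 59.9. The ratio of the means was 0.530 and single pairs of libraries gave 0.440 to 0.630. The log2 difference was -0.90 (SE 0.28, 95% interval -1.56 to -0.24) with an unadjusted p of 0.0135 and a limma adjusted p of 0.159, which missed the threshold. With the replicate number as a block it passed (SE 0.18, limma adjusted p = 0.0295), as 1 of 10 members against 6.94% of all genes. It also passed with median-of-ratios scaling (limma adjusted p = 0.0488, against 3.66% of all genes). Over the other fits the adjusted p reached up to 0.539. No other member had an unadjusted p under 0.05 there. Across all genes 1.21% passed upward and 0.547% downward, and an unadjusted p under 0.05 was reached by 10.3% upward and 7.1% downward. PMAIP1 and BAX were the members whose knockout libraries both lay below the wild-type ones, against 20.6% of all genes, and none lay above, against 24.8%. BAX, at 81.6 and 60.6 against 86.0 and 89.7, had a log2 difference of -0.32 (adjusted p = 0.520). STING itself was also lower in these knockout libraries, and its part in the differences was not tested.

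With vector alone, PMAIP1 did not separate the genotypes, at 36.2 and 48.5 FPKM in wild-type and 27.4 and 46.0 in knockout cells (log2 difference -0.23, 95% interval -0.89 to 0.43). No member passed (limma; 0.0326% of all genes passed upward and 0.0163% downward, 0.049% in all, and 0.857% with the replicate block, where again no member passed). The small differences of BID, BAD and MCL1, which were lower in knockout cells by log2 values of -0.12, -0.03 and -0.12, changed sign under both rescalings. With an unadjusted p under 0.05, 2 members were lower in knockout cells, against 7.99% of all genes, and none was higher, against 4.38%. These were BAX, at 124 and 98.7 FPKM in wild-type and 81.5 and 65.1 in knockout cells (log2 difference -0.59, unadjusted p = 0.0273, adjusted p = 0.338), and BCL2L11, at 8.93 in each library against 6.41 and 5.08 (-0.57, unadjusted p = 0.0276, adjusted p = 0.338). BAK1, at 42.0 and 38.0 against 22.9 and 34.1, also lay lower without overlap (-0.50), which makes 3 members against 25.8% of all genes. BCL2L1 was the 1 member that lay higher without overlap, at 17.6 and 19.5 against 17.6 and 17.0, against 12.5% of all genes. Its nearest knockout and wild-type libraries were almost equal, at a ratio of 1.00028. Beside these genotype differences, KRT8, an epithelial keratin and HEK293 marker, was at 11.8 to 18.6 FPKM in wild-type and 54.7 to 68.3 in knockout libraries (log2 difference 1.75 with vector and 2.33 with STING, adjusted p = 0.0444 and 0.0228, and up to 0.270 and 0.182 with 1 library left out). The part of such differences between the lines in the members' values was not tested.

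**Figure D3:**
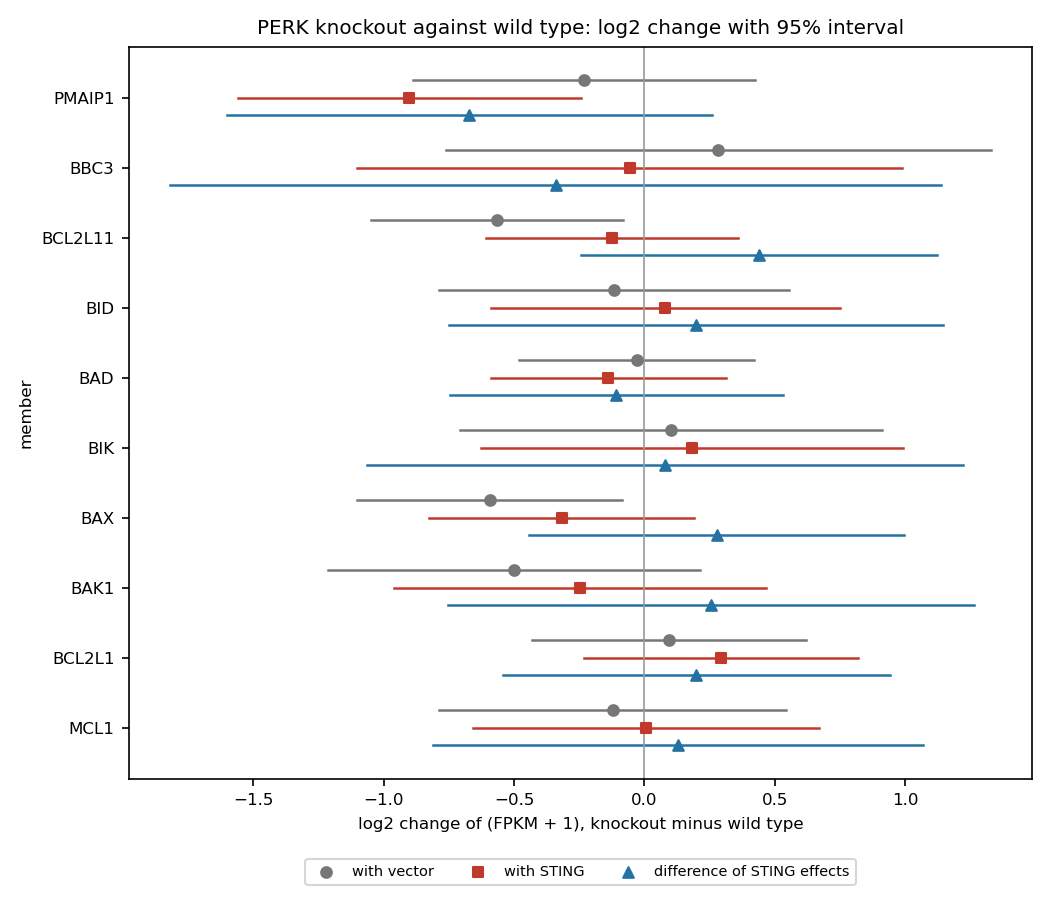
Log2 difference of (FPKM + 1), PERK knockout minus wild type, for each member (rows) with vector (grey circles) and with STING (red squares), and the difference of the STING effects between genotypes (blue triangles); lines are 95% intervals from limma. The PMAIP1 value with STING, -0.90, has an interval that ends at -0.24, while its interval with vector and that of its interaction cross 0.

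BAD led in each of the 6 groups, at 131 to 343 FPKM on average, and BAX was second except with STING in the first experiment, where PMAIP1 (mean 134) stood above BAX (mean 68.4). With vector in that experiment PMAIP1 stood at place 5, at a mean of 32.3, below BAK1 (42.3). In the 4 knockout-experiment groups PMAIP1 stood at place 3, and its libraries overlapped the next lower member's in all but the wild-type STING group. BBC3 stood at place 8 with vector and at place 6 with STING in the first experiment. Neighbours in that order whose libraries overlapped were BCL2L1 and BIK, BBC3 and BCL2L11, and BCL2L11 and MCL1 with vector in the first experiment, and BAX and BID with STING. In each group of the knockout experiment BBC3 overlapped MCL1, in both STING groups BCL2L1 overlapped BBC3, and in knockout cells BID and BAK1 overlapped. The lowest member was MCL1 with vector in the first experiment and BIK elsewhere, and with STING in the first experiment BIK and MCL1 overlapped.

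NOXA and MCL1 act as a pair, so their ratio was described for each library, with no test. The log2 ratio of PMAIP1 to MCL1 was 3.64 and 3.62 with vector and 5.20 and 5.03 with STING in the first experiment, which corresponds to 12.4 and 12.3 PMAIP1 fragments per MCL1 fragment of equal length with vector and 36.7 and 32.6 with STING. The groups did not overlap. In wild-type cells the log2 ratio was 2.46 and 2.21 with vector and 2.71 and 3.20 with STING, also without overlap. In knockout cells it was 2.07 and 2.40 with vector and 2.08 and 1.97 with STING, which overlap. The mean difference in log2 ratio was 1.48, 0.62 and -0.21 in these 3 comparisons.

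PMAIP1 made up 6.65% and 6.99% of the summed FPKM of the 6 BH3-only genes with vector in the first experiment and 28.6% and 27.2% with STING. That sum itself stayed within a narrow range, 442 and 503 FPKM with vector and 499 and 463 with STING, while the share of BAD was 71.2% and 73.9% with vector and 53.6% and 55.7% with STING. In wild-type cells PMAIP1 held 12.4% and 20.1% with vector and 21.7% and 26.1% with STING, and in knockout cells 11.4% and 17.3% against 14.2% and 15.8%. The log2 ratio of BCL2L1 to BAX, a survival gene against an effector, was -3.93 and -3.30 with vector and -3.46 and -3.51 with STING in the first experiment, which overlap. In wild-type cells it was lower with STING, at -3.14 and -3.03 against -2.81 and -2.54. In knockout cells it was -2.21 and -1.74 with vector and -2.94 and -1.96 with STING, again overlapping. The log2 ratio of BBC3 to BCL2L1 was -0.75 and -0.73 with vector and 1.96 and 1.12 with STING in the first experiment, so BBC3 stood below BCL2L1 with vector and above it with STING.

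**Figure D4:**
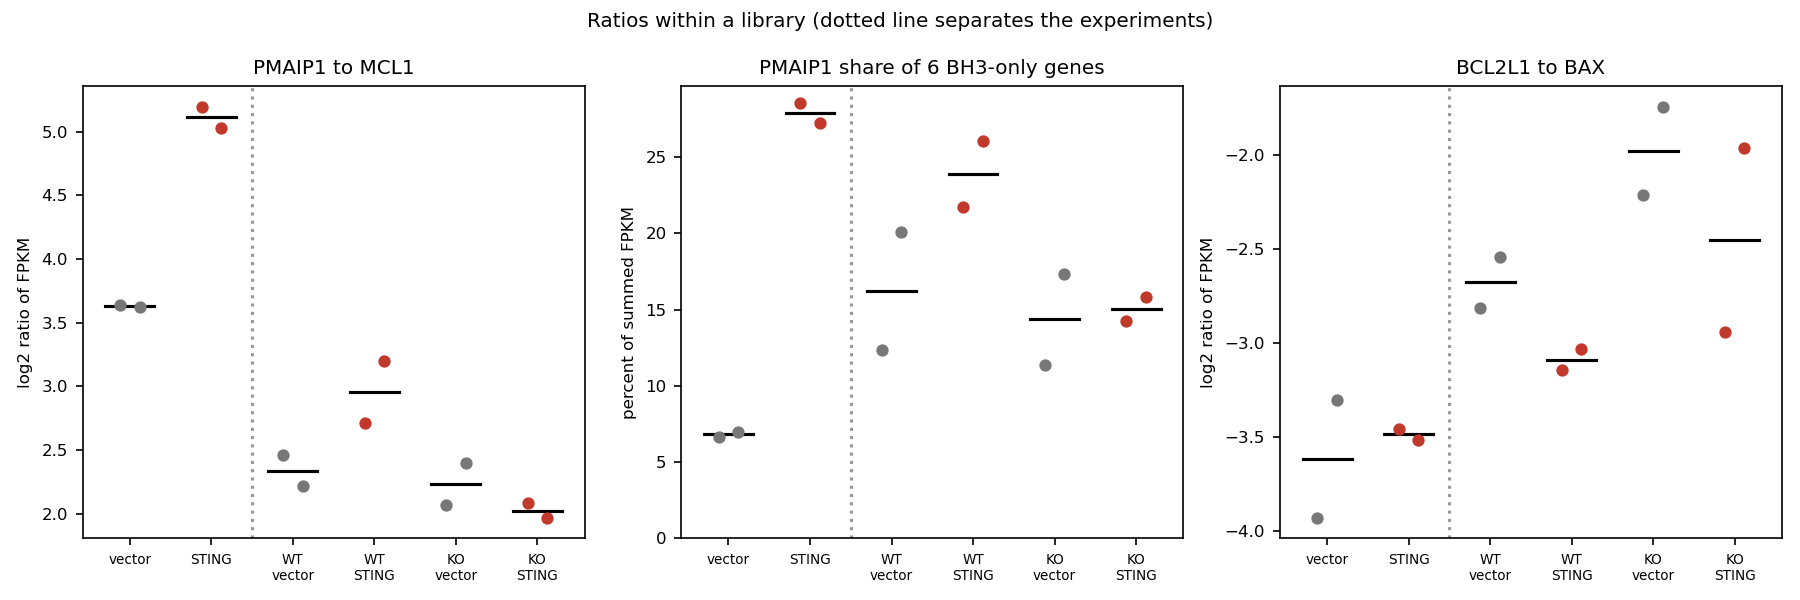
Ratios within each library, from left to right the log2 ratio of PMAIP1 to MCL1, the percent of the summed FPKM of the 6 BH3-only genes that is PMAIP1, and the log2 ratio of BCL2L1 to BAX. Points are libraries (grey, vector; red, STING), horizontal lines are means, the dotted line separates the experiments, and the outer panels do not start at 0; in the left panel knockout cells with STING stand at 2.08 and 1.97, below both wild-type STING libraries.

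The other genes of the pathway were taken from 6 lists of 68 genes. The lists too were chosen with earlier results of these data known, so counts in them do not test an enrichment. Among transcription regulators of NOXA, PUMA and BIM, 3 of 11 tested genes were higher with STING in the first experiment, against 2.51% of all genes, and none was lower, against 9.29%. ATF3, a stress-induced factor of the ATF family, was at 13.1 and 8.34 FPKM with vector, against 55.0 and 51.3 with STING (log2 change 2.24, SE 0.22, limma adjusted p = 0.00176). MYC, a growth regulator, was at 4.10 and 7.15 against 16.0 and 15.2 (1.36, adjusted p = 0.0145). DDIT3, which encodes the stress factor CHOP, was at 29.1 and 27.6 against 66.5 and 49.0 (0.99, adjusted p = 0.0134). ATF4, at a log2 change of 0.28 (adjusted p = 0.186), did not pass, although it did after quantile normalization (0.71, adjusted p = 0.0161).

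Among death receptors and adaptors 1 of 5 was lower, against 9.29% of all genes. This was TNFRSF1A, a receptor of tumour necrosis factor, at 68.2 and 77.2 against 36.5 and 34.7 FPKM (log2 change -1.01, limma adjusted p = 0.00546). Among genes of MCL1 and NOXA turnover and partners 1 of 12 was higher, against 2.51% of all genes. This was TPT1, a growth-related protein that binds MCL1, at 1449 and 1404 against 2378 and 2232 (0.69, adjusted p = 0.00506). None of 8 other BCL2 proteins and none of 4 inhibitors of apoptosis passed. These 5 called genes each missed the threshold without STING library 1, without STING library 2 and without the intensity trend and robust estimation (adjusted p from 0.0845 to 0.221). DDIT3 did so also without vector library 2 (0.0558), and MYC without the filter on low values (0.0516).

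In the knockout experiment no gene of the 6 lists passed for STING in wild-type cells, for STING in knockout cells, for the interaction or for genotype with vector, with or without the replicate block. ATF3 was at 16.3 and 20.5 FPKM with vector, against 26.1 and 28.8 with STING in wild-type cells, and at 11.9 and 14.6 against 20.0 and 23.5 in knockout cells. The STING libraries were higher in both genotypes without overlap, with log2 changes of 0.56 and 0.68 (limma adjusted p = 0.384 and 0.520). DDIT3 was at 57.8 and 58.8 FPKM with vector, against 81.7 and 80.4 with STING in wild-type cells, and at 51.9 and 60.7 against 43.8 and 37.9 in knockout cells. With STING, DDIT3 was lower in knockout than in wild-type cells (log2 difference -0.97, SE 0.17, limma adjusted p = 0.0439), the only 1 of 61 tested genes of the lists that passed for genotype with STING, against 0.547% of all genes lower and 1.21% higher. With the replicate block 6 of 61 passed, against 6.94% of all genes: DDIT3 (adjusted p = 0.0182), ATF4 (0.0111), BNIP3 (0.0218), VDAC1 (0.0451), TPT1 and BNIP1. The DDIT3 call was lost in each fit that left out 1 of the 8 libraries and in the fit to the 2 groups alone (limma adjusted p = 0.118). The lower STING level of the knockout libraries moves with this comparison, and its part was not tested. ATF4, whose mRNA is translated when eIF2alpha is phosphorylated, was at 2829 and 2502 FPKM in wild-type and 1753 and 1224 in knockout cells with STING (-0.86, adjusted p = 0.106, and 0.0180 after quantile normalization). BNIP3, a mitochondrial BCL2-related protein, was at 84.2 and 72.0 against 146.9 and 217.1 (1.19, adjusted p = 0.0603, and 0.0221 with a minimum mean of 5, 0.0217 with median-of-ratios scaling and 0.0270 after quantile normalization).

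Where no gene of a list passed, the most changed gene averaging 5 FPKM or more is given by its log2 change. In the first experiment these were BNIP2, a BCL2-interacting protein, at 0.82 (limma adjusted p = 0.0769), and BIRC5, which encodes survivin, at -0.00081. BIRC5 was the only tested gene of its list at that level. BIRC2, which averaged less, was at 6.63 and 4.54 FPKM with vector, against 3.59 and 3.19 with STING. It was lower without overlap, as were 32.8% of all genes. In wild-type cells STING gave -0.92 for TNFRSF1A, -0.74 for the mitochondrial channel gene VDAC3, -0.68 for AIFM1, -0.50 for BCL2L12 and 0.25 for CFLAR, which encodes FLIP. In knockout cells it gave -0.73 for CYCS, the cytochrome c gene, -0.55 for BNIP2, -0.50 for the co-chaperone gene BAG3, -0.46 for TNFRSF1A and -0.31 for BIRC2, an inhibitor of apoptosis. The TNFRSF1A change was thus negative in each of the 3 comparisons, but the gene passed in the first experiment only. In knockout cells its groups overlapped, at 27.7 and 42.3 FPKM with vector against 18.9 and 31.9 with STING. The difference between experiments was not tested. For genotype with vector the values were 0.97 for BNIP3, -0.81 for AIFM1, 0.78 for MYC, -0.74 for TNFRSF10B, 0.36 for CFLAR and -0.26 for VDAC3. With STING they were 0.72 for VDAC1, -0.63 for BIRC2, -0.51 for DIABLO, an antagonist of the inhibitors of apoptosis, and 0.37 for TRADD. For the interaction, the genes so chosen from each list had -0.92 for DDIT3, 0.67 for BNIP3L, 0.57 for TNFRSF10B, -0.54 for BAG3, -0.42 for CASP6 and -0.39 for BIRC2. ENDOG, which averaged under 5 FPKM and was not eligible, had 0.92. None of these knockout-experiment values passed, except VDAC1 with the replicate block.

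**Figure D5:**
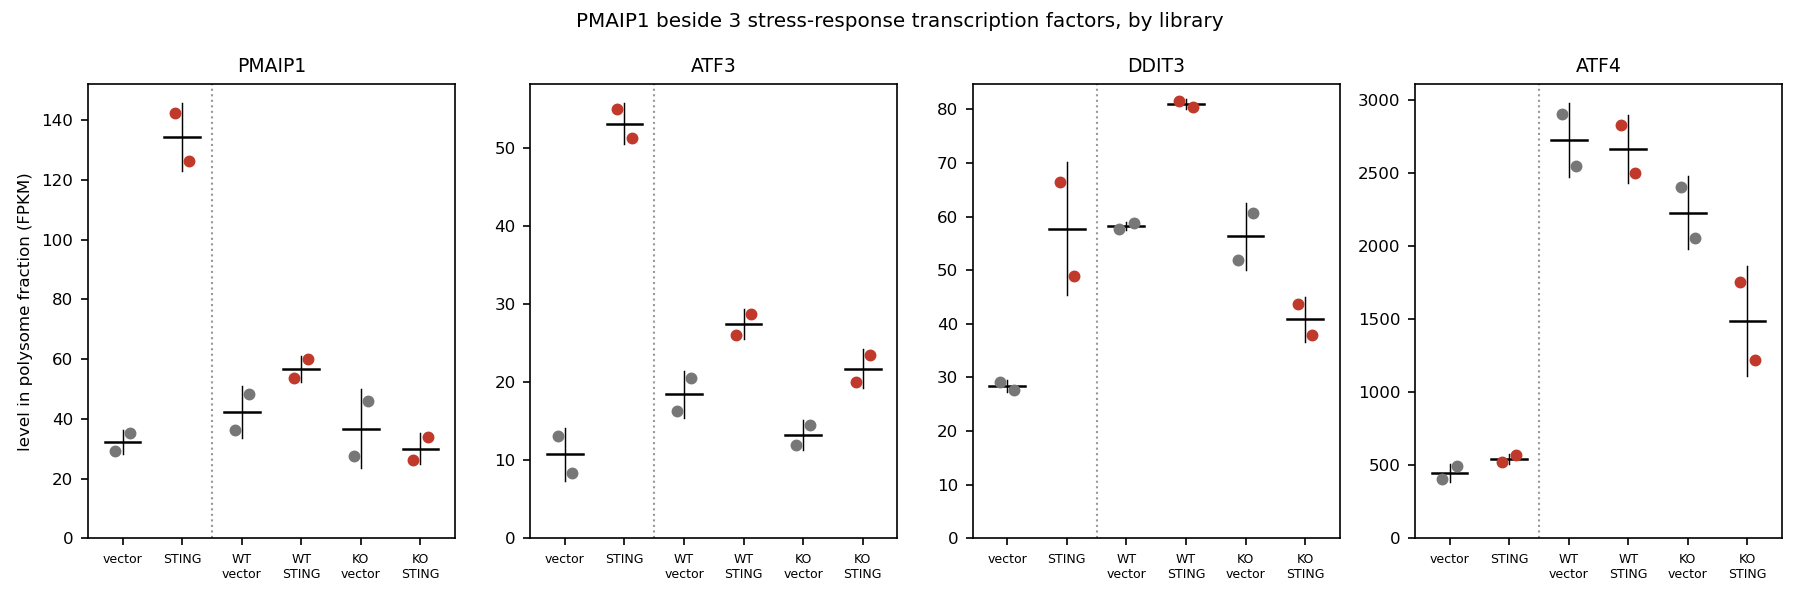
Level in the polysome fraction (FPKM, linear axes from 0) of PMAIP1 and of the transcription factors ATF3, DDIT3 and ATF4 in each library. Points are libraries (grey for vector, red for STING), horizontal lines are means and vertical lines the SD of 2 libraries. The dotted line separates the experiments. With STING, PMAIP1, ATF3, DDIT3 and ATF4 each lie lower in both knockout libraries than in both wild-type libraries, as do 20.6% of all genes. The STING level is also lower in those knockout libraries, and its part was not tested.

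The genes whose pattern was most like that of PMAIP1 were ranked by Pearson's r over the 12 libraries, on log2(FPKM + 1) centred within each experiment, among the 3467 genes that averaged 10 FPKM or more in both tables. The first 5 were PPP1R15A, which encodes the stress-induced eIF2alpha phosphatase subunit GADD34 (r = 0.939), TGIF2, a homeobox repressor (0.922), CITED1, a transcription co-regulator (0.900), SLC38A2, a neutral amino acid transporter (0.900), and PPP1CC, a catalytic subunit of protein phosphatase 1 (0.896). PPP1R15A was at 9.71 and 10.6 FPKM with vector, against 23.0 and 27.1 with STING in the first experiment. Its levels in the knockout experiment were 56.9 and 65.2 with vector and 72.5 and 63.2 with STING in wild-type cells, and at 40.9 and 48.6 against 48.1 and 47.5 in knockout cells. The PMAIP1 levels spread most in the first experiment, and r was not taken for each experiment alone. Libraries of a group share their treatment, so r is a description. Among members at that level, PMAIP1 ran against BAD (r = -0.46) and BAX (-0.42), while BID and BAK1 (0.73) and BID and BAD (0.70) ran together.

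Some members share sequence with other genes in the annotation (GENCODE release 29), and the labels' protocols name no step that marks the strand. Exons overlap on the opposite strand between BAD and GPR137, BAK1 and GGNBP1, BBC3 and MIR3190, BCL2L1 and ABALON, and BCL2L11 and MIR4435-2HG, and on the same strand between MCL1 and ADAMTSL4-AS1 and between BBC3 and MIR3191. BAK1 also has the processed pseudogenes BAK1P1 and BAK1P2. Reads that match both genes of a pair cannot be told apart here, and how many do so was not measured. The levels of these 6 members are uncertain to that extent. PMAIP1, BID, BIK and BAX had no such overlap.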

How the data were processed

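RNA of polysome fractions was measured in 12 libraries, 2 in each of 6 groups assigned by title. Nothing in the labels says that replicates came from separate cultures, so a p-value covers only the spread of these libraries, possibly technical. The authors made the FPKM values with TopHat2 (2.1.1) followed by Cufflinks (2.2.1), mapped to hg19, per the submitters' processing notes. The deposited table of the knockout experiment names no unit and was taken to hold FPKM raised to 1 where lower, judging by its values. ERCC spike-ins were added in that experiment, per the labels' protocols, and the sources used here do not say whether they entered the scaling, nor which annotation and filters were used. The tables were normalized separately and tested separately.

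Log2(FPKM + 1) was tested with limma 3.58.1 (R 4.3.3) in genes averaging 1 or more whose values were not all equal (9464 and 12254 genes). Moderation was robust and allowed for an intensity trend; tests were two-sided and were adjusted by Benjamini and Hochberg at 0.05 over all genes. The 8 knockout-experiment libraries shared 1 estimate of the spread. There, deviations of same-numbered libraries from their group means correlated at 0.105 to 0.605 in all 6 pairs of groups, so the numbers were taken to pair the libraries; this comes from the data, since the labels name no shared batch. The fit without the block was kept as the main one, so its SEs, intervals and p-values leave this pairing out. Blocked values stand beside results they change. The log2 scale with its pseudocount understates changes of low genes. The fit was run on simulated data with no pairing of libraries and with changes only in the more abundant genes. That run bears neither on the pairing nor on low genes. Alternatives changed the pseudocount, the filter, the scaling, the variance model, the groups fitted, the replicate block and each library in turn. The 10 members and the lists were chosen with earlier results of these data known. All members were named, and from each pathway list and comparison the genes that passed (at most 3 a direction) or, where none did, the 1 most changed among those averaging 5 or more; PMAIP1-like genes were the 5 with the highest r. ATF4, VIM and KRT8 were singled out after their values were seen. The first experiment's result for the list of apoptosome and caspase genes is not reported here.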

Additional observations from a re-analysis of the deposited data

Results flagged for a closer look

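In 4 genes of the pathway lists, every STING library of the knockout experiment moved one way in wild-type cells and the opposite way in PERK knockout cells, without overlap, while the interaction did not pass (limma adjusted p = 0.966 in each). None of the 10 members did so. Among all genes, 0.457% were higher in wild-type and lower in knockout cells in this way, and 2.14% the reverse.

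DDIT3, which encodes CHOP, was at 57.8 and 58.8 FPKM with vector and 81.7 and 80.4 with STING in wild-type cells, and at 51.9 and 60.7 against 43.8 and 37.9 in knockout cells (difference of log2 changes -0.92, SE 0.24, unadjusted p = 0.00567). TNFRSF10B, a death receptor for TRAIL, was at 25.8 and 29.8 with vector and 23.0 and 20.5 with STING in wild-type cells, and at 16.3 and 16.2 against 19.3 and 19.1 in knockout cells (0.57). BCL2L13, a mitochondrial BCL2-like protein, was at 20.7 and 20.2 against 15.7 and 16.6, and at 14.6 and 17.6 against 18.9 and 19.8 (0.58). ENDOG, a mitochondrial endonuclease, was at 3.69 and 2.59 against 2.36 and 1.32, and at 1.64 and 2.09 against 2.77 and 2.56 (0.92), levels close to the lowest value of that table.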

How the results depend on the processing

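Groups of 2 libraries without counts limit each result. In the first experiment 3 members passed, against 6 with a minimum mean of 5, 0 without the intensity trend and robust estimation, 6 with the replicate block (BID, BAD and BAX added, limma adjusted p = 0.0418, 0.0321 and 0.0239), and 0 to 2 when 1 library was left out. For genotype with STING, 0 members passed, against 1 (PMAIP1) with median-of-ratios scaling and 1 with the replicate block (PMAIP1, limma adjusted p = 0.0295). The counts of members were 0 in all fits of the other 4 comparisons. Median-of-ratios scaling and quantile normalization changed the sign of 4 and 4 of the 10 members for STING in wild-type cells, again 4 and 4 for STING in the knockout, 3 and 3 for genotype with vector, 1 and 1 for genotype with STING, 2 and 4 for the interaction, and 0 and 1 in the first experiment. Among them were BAD in the first experiment (0.049 after quantile normalization) and BBC3 in wild-type cells (0.29 with median-of-ratios scaling and 0.29 after quantile normalization). BIRC5 in the first experiment, at -0.00081, became 0.081 and 0.32 under these 2 scalings. With 1 library left out, log2 changes ran from -0.45 to 0.87 for BCL2L11 in the first experiment, -0.36 to 0.25 for BBC3 in wild-type cells, -0.61 to 0.12 for PMAIP1 and -1.07 to 0.28 for BBC3 in knockout cells, -1.02 to 0.34 for the BBC3 interaction, and -0.60 to 0.13 for PMAIP1 by genotype with vector. For the less changed pathway genes they ran from -0.064 to 0.062 for BIRC5 in the first experiment, -0.066 to 0.56 for CFLAR in wild-type cells, and -0.23 to 0.95 for CFLAR and -0.54 to 0.015 for VDAC3 by genotype with vector. The cause was not tested. Of 953 member changes under all alternatives, 851 kept direction and side of the threshold, 8 gained and 13 lost a call, and 81 changed sign, none of them past the threshold.

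Over all genes, 1117 passed in the first experiment, against 580 without the filter, 17 without the trend and robust estimation, 38 and 42 without a STING library and 686 without vector library 2. For genotype with vector 6 passed, against 0 to 105 elsewhere, and for genotype with STING 215, against 0 to 851. In the first experiment the replicate numbers were not taken to pair the libraries (correlation of same-numbered deviations 0.084), and the replicate block raised the count over all genes to 1587, BNIP2 among them (adjusted p = 0.0451). In the knockout experiment the block raised it to 105 for genotype with vector and 851 with STING, and it changed no call of a member or pathway gene other than PMAIP1, ATF4, BNIP3, VDAC1, TPT1 and BNIP1 for genotype with STING.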
